A study of Caenorhabditis elegans with 2 samples.

Results

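mdl-1, hlh-11, hif-1 and hlh-29 encode basic helix-loop-helix (bHLH) transcription factors of the nematode Caenorhabditis elegans. These 4 genes were selected from 41 listed bHLH genes by measured values. Each was the nearest protein-coding gene start, within 5000 bp, to the summit of a ZAG-1 peak in the authors' list filtered for reproducibility. Over all 19973 protein-coding genes of the nuclear chromosomes, 218 (1.09%) met that rule. Since the rule used the peaks, the presence, signal and position of these peaks are given as a description, with no test.

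The peaks come from chromatin immunoprecipitation and sequencing (ChIP-seq) of eGFP-tagged ZAG-1 in whole worms. All worms were of strain OP83, genotype unc-119(ed3) III with the insertion wgIs83, at the L4 larval stage, with males and females pooled and age unknown. The single group has 2 biological replicates. No strain without the tag and no other stage was analysed here, so there is no contrast between conditions, and the ChIP signal of whole worms does not show in which cells a region was bound.

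Many bHLH factors, though not all, bind DNA as dimers at E-box sites (CANNTG) through a basic region, and their partner sets the preferred E-box. MDL-1 is the worm's Mad-like factor and pairs with the Max-like MXL-1. HLH-11 is related to vertebrate TFAP4 (AP-4) and is known in worms for repressing the fat lipase gene atgl-1. HLH-29 belongs to the REF-1 family of Hes-like factors, some of which respond to Notch signalling. HIF-1 is the hypoxia-inducible factor, which pairs with AHA-1 and is removed in normal oxygen through EGL-9 and VHL-1. ZAG-1 itself is a ZEB-family zinc-finger homeodomain factor of neuron differentiation, whose vertebrate relatives bind CAGGTG and CAGGTA.

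The sequences under the 4 summits are shown because the peaks differ in their words and in whether the sequence is unique. Each is read from the RefSeq WBcel235 (ce11) genome, 5′ to 3′ on the strand of the gene, and covers 100 bp to each side of the summit. That of mdl-1 stops where its annotated transcript begins. The summit is at base 101 of each. Capitals mark, on either strand, the repeat GAGAGA or the repeat CACACA, the word CGTCTC or the word ACGCAG, the ZEB-type word CAGGTG or its variant CAGGTA, and the Max-type E-box CACGTG, and marked words may overlap. The windows are chrX:6742206-6742350 (mdl-1), chrIII:9619247-9619447 (hlh-11), chrX:17544503-17544703 (hlh-29, minus strand) and chrV:20778347-20778547 (hif-1).
mdl-1: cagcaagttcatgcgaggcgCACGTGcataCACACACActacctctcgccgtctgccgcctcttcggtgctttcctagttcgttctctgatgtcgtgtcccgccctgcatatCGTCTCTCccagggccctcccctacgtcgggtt
hlh-11: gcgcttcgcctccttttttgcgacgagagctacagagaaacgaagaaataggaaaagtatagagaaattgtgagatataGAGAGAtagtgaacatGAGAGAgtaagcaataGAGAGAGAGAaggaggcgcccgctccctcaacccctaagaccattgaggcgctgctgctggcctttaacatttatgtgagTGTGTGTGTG
hlh-29: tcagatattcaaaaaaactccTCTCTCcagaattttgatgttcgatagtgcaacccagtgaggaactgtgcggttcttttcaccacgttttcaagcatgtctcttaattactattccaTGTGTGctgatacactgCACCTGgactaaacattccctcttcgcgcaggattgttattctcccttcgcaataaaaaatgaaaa
hif-1: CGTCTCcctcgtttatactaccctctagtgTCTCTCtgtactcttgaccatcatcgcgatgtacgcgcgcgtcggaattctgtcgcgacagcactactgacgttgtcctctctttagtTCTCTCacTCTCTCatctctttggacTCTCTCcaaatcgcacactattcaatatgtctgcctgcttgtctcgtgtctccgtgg

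The data are 4 peak lists in the ce11 build, and in each a region has a signal value in the unit of the authors' peak caller, which ranks regions within its list. Replicate 1 has 11750 regions, replicate 2 has 30000, the list of both replicates pooled has 4010, and the list kept after analysis of the irreproducible discovery rate (IDR) has 246. The 3 long lists are labelled as peaks and background, so a low-ranked region is not by itself a binding site. Signal scales differ between lists, with a median of 14.8 in replicate 1 and 7.95 in replicate 2, so replicates are compared by rank, where 1 is the strongest. The lists hold no read counts, so the read depth is unknown, and each signal value has no error of its own.

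The peak of mdl-1 covered the gene's start. The gene (X:6742351-6743899, plus strand, WBGene00003163) had its IDR peak at X:6742136-6742475, with the summit 45 bp upstream of the start, outside annotated genes. Its signal was 56.9 in the IDR list, rank 119 of 246. In replicate 1 the strongest overlapping region had signal 43.7 and rank 79, with its summit 140 bp upstream, and a further overlapping region had its summit 74 bp downstream, at signal 29.2 and rank 264. In replicate 2 the overlapping region had signal 21.1 and rank 243, with its summit 19 bp downstream, in the 5′ untranslated region. The leading summits of the replicates were thus 159 bp apart, on opposite sides of the start. Where both replicates had a region under an IDR peak, the median gap was 38 bp, and 5.71% of the peaks had a gap at least as large.

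The mdl-1 start also had more regions around it than most genes. Within 5000 bp to each side there were 5 regions in the pooled list, 5 in replicate 1 and 9 in replicate 2. As many or more were found at 0.10% of protein-coding genes in the pooled list, 1.35% in replicate 1 and 0.546% in replicate 2. Here and for the other genes below, the counts include the regions at the IDR peak by which the gene was chosen. The shares over all genes, most of which have no such peak, are therefore a description only. Of the pooled regions outside the IDR set, the strongest had its summit 620 bp downstream of the start, in an intron, with signal 40.3 and rank 351. It was matched in replicate 2 by a region 630 bp downstream, of rank 204, the highest of any region near mdl-1 in that replicate. Replicate 1 had no region there. In replicate 1 the second strongest region lay 1712 bp downstream, past the gene's end and at the non-coding RNA gene R03E9.10, with signal 36.5 and rank 129. Replicate 2 placed a region at 1565 bp with rank 5507 there. The strongest secondary region near mdl-1 therefore differed between the replicates, while the region at 1597 bp upstream in replicate 1 (rank 1247) and 1564 bp upstream in replicate 2 (rank 2813) was listed in both. The nearest other protein-coding start, that of R03E9.2, lay 9005 bp from the summit, so no second protein-coding gene shared this peak within the distance limit. The starts of the non-coding RNA genes R03E9.9, R03E9.7 and R03E9.10 lay 984, 1966 and 2005 bp from the summit.

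The peak of hlh-11 lay in the upstream region of the gene. The gene (III:9619711-9626529, plus strand, WBGene00001955) had its IDR peak at III:9619177-9619516, with the summit 364 bp upstream and signal 56.7, rank 122. Replicate 1 had a region with its summit 363 bp upstream, at signal 31.0 and rank 211. Replicate 2 had one with its summit 265 bp upstream, at signal 26.3 and rank 102, the best rank of the 4 genes in that replicate. Their summits were 98 bp apart, a gap that 14.7% of the IDR peaks reached.

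Replicate 1 split the hlh-11 upstream region into 3 overlapping regions, with summits 572, 363 and 157 bp upstream and ranks 278, 211 and 2250. Replicate 2 had a single region there. Outside this cluster, its best other region ranked 1470 in the pooled list (2349 bp upstream), 4762 in replicate 1 (4408 bp downstream, in an intron) and 20018 in replicate 2 (in a coding exon of hcp-3). Within 5000 bp of its start it had 6 regions in replicate 1, a number that 0.421% of protein-coding genes reached, 4 in replicate 2 (34.2%) and 3 in the pooled list (1.59%). The gene has 8 annotated transcripts, whose starts lay 364 to 3127 bp downstream of the summit. The next protein-coding start was that of hcp-3, the centromeric histone gene, which the summit preceded by 2877 bp, so hlh-11 and hcp-3 diverge around the peak. Also within 5000 bp of the summit were the starts of protein-coding F58A4.6 (4865 bp), the piRNA gene 21ur-9360 (3061 bp) and the non-coding RNA gene F58A4.16 (3063 bp).

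The peak of hlh-29 was the farthest from its gene. The gene (X:17547492-17548639, minus strand, WBGene00001968) lies 170303 bp from the right end of X. Its IDR peak, X:17544433-17544772, had the summit 4036 bp downstream of the start, beyond the gene's end and outside annotated genes, with signal 55.4 and rank 130. Replicate 1 had signal 31.4 and rank 197 there, and replicate 2 signal 22.3 and rank 197. The summits of the replicates were 16 bp apart, closer than the median of 38 bp. No other gene start of any kind lay within 5000 bp of the summit, so the assignment to hlh-29 rests on distance alone.

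The sequence under the hlh-29 peak is repeated nearby. A search of its 201-bp window against the genome found, besides itself, matches of 118 bp at 98.3% identity and 86 bp at 98.8% identity, both on X and both in the opposite orientation, within X:17545386-17545755. The windows of mdl-1, hlh-11 and hif-1 had 0 other matches. The matches were at X:17545386-17545471 and X:17545639-17545755, so this span of 370 bp also holds unmatched sequence between them. The second pooled region near hlh-29, X:17545420-17545759, with signal 26.2 and rank 1973, had 336 of its 340 bp inside the span. A region of replicate 1 with signal 20.2 and rank 1313 had 288 of its 356 bp there. Replicate 2 listed no region in the span. The bp of these regions within the matches themselves were not counted. Reads from the copies may not be separable, and no source used here says how the authors' alignments treated such reads. The part of the copy in the signal of either region was not tested.

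hlh-29 also has a near-identical neighbour, hlh-28 (X:17551055-17552202, plus strand, WBGene00001967), on the opposite strand, with 2415 bp between the starts. Over their 1148 bp the genes share 1144 bases (99.7%). In steps of 200 bp, identity was at least 98.5% from 800 bp upstream to 1199 bp downstream of each start, and it was 28% in the step that holds the IDR summit. None of the 4 lists had a summit within these 2000 bp in either copy. hlh-28 had 0 regions within 5000 bp of its start in the IDR, pooled and replicate 1 lists, and 2 in replicate 2. Near hlh-29 the pooled list, replicate 1 and replicate 2 each had 2 within 5000 bp, and 7.35%, 32.1% and 77.7% of protein-coding genes had as many.

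The peak of hif-1 had the lowest signal of the 4 in the IDR list. The gene (V:20780407-20785260, plus strand, WBGene00001851) had its IDR peak at V:20778277-20778616, with the summit 1960 bp upstream of the start, outside annotated genes, and signal 48.8, rank 199. Replicate 1 had signal 35.6 and rank 136. Replicate 2 had signal 15.6 and rank 1006. Its rank in replicate 1 was thus ahead of those of hlh-11 and hlh-29, while its rank in replicate 2 was behind those of the 3 other genes. The summits were 61 bp apart. The next protein-coding start, that of F38A6.4, lay 3078 bp from the summit on the opposite strand, so this peak too lies between diverging genes. The start of F38A6.5, also protein-coding, lay 4700 bp from the summit.

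Between the IDR peak and the hif-1 start only low-ranked regions were listed. The pooled region 258 bp upstream of the start had signal 23.6 and rank 3312, and it ranked 4804 in replicate 1 and 18439 in replicate 2. Replicate 2 had 10 regions within 5000 bp of the hif-1 start, a number that 0.175% of protein-coding genes reached. Replicate 1 had 5 (1.35%) and the pooled list had 3 (1.59%). Of those of replicate 2, the IDR peak ranked first, followed by an intronic region 274 bp downstream (rank 1568) and one 3434 bp upstream (rank 1897). Replicate 1 listed no region overlapping either of these. The 6 annotated transcripts of hif-1 begin 1960 to 4025 bp downstream of the summit.

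**Figure D1:**
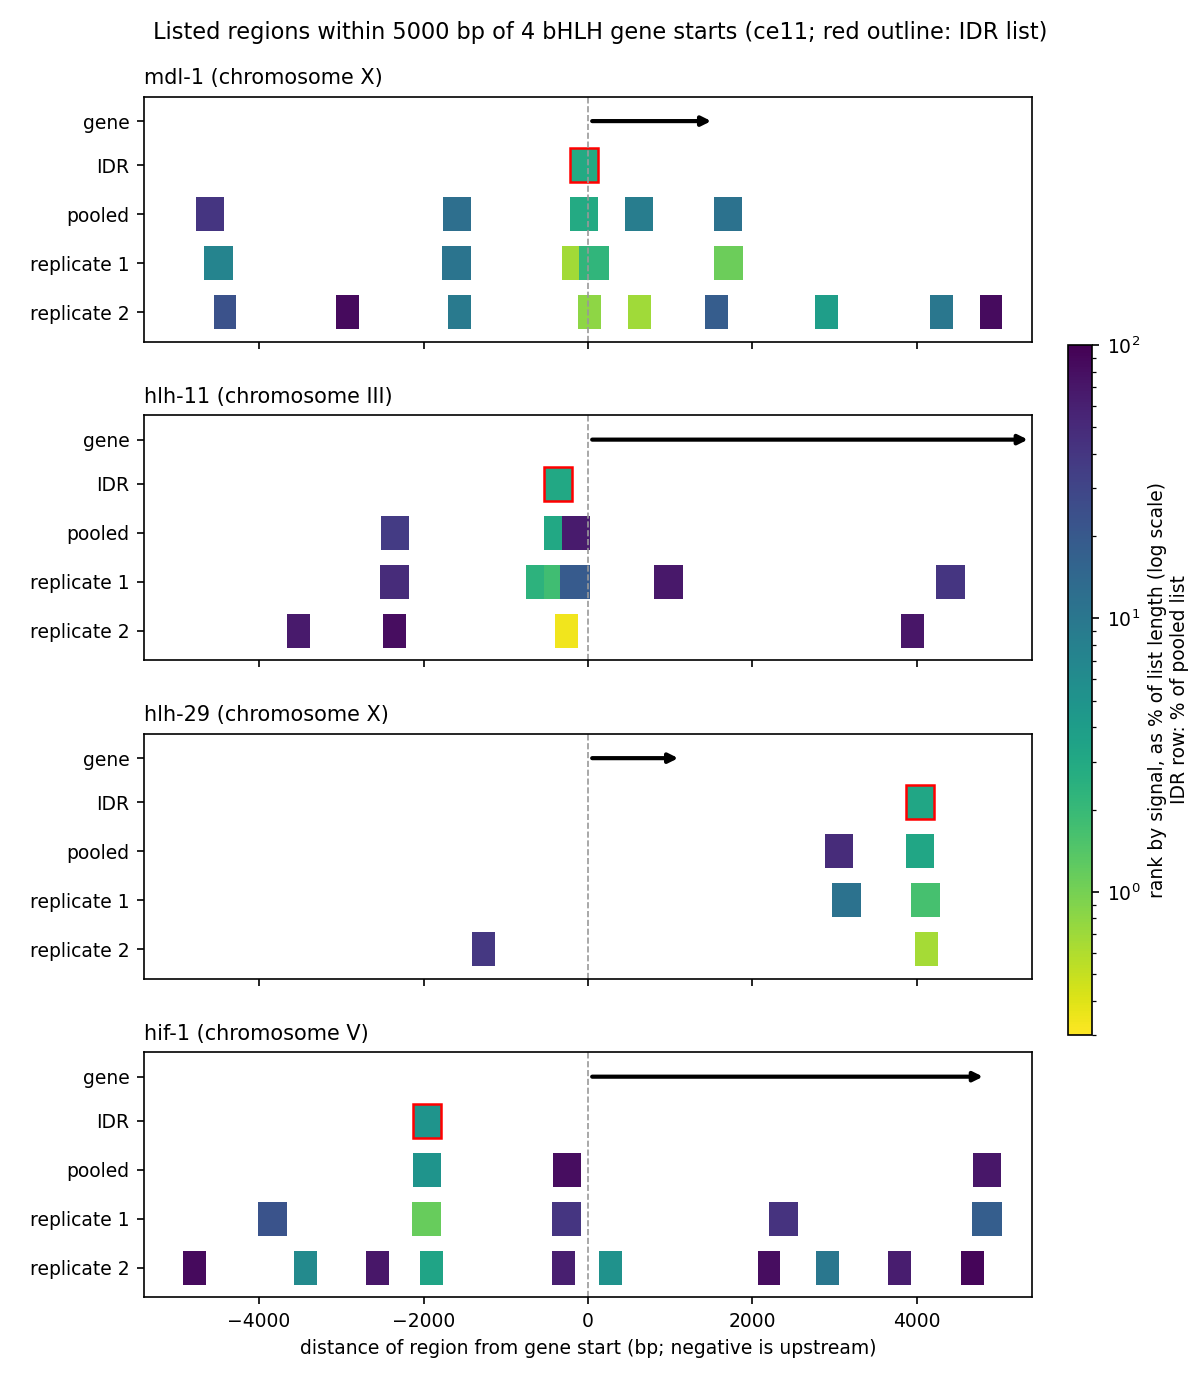
Listed regions around the starts of the 4 bHLH genes. The x axis is the distance from the gene start in bp along the gene's strand, rows are the 4 lists, each box is a region, colour is its rank as a percentage of its list on a log scale (for the IDR row, of the pooled list), and the arrow is the gene, drawn only to the edge for hlh-11. The IDR peak covers the start at mdl-1, lies upstream at hlh-11 and hif-1 and past the gene's end at hlh-29, and mdl-1 and hif-1 have 9 and 10 regions in replicate 2.

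All 4 peaks stood in the middle or lower part of the IDR list. Their ranks ran from 119 to 199 and their median signal was 56.0, equal at this precision to the 56.0 over all 246 peaks. The pooled list gave each of the 4 peaks the same signal and rank, so the IDR values are not a separate measurement. The weakest IDR peak had signal 45.4. By the authors' −log10 q, mdl-1 and hlh-11 had the highest value of the list, 2.39, which 122 of 246 peaks shared, while hlh-29 had 1.94 and hif-1 1.75.

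In both replicates 3 of the 4 peaks, those of mdl-1, hlh-11 and hlh-29, were overlapped by a region from the 246 strongest, against 43.9% of all IDR peaks. The rule used the IDR list, which was made from these replicates, so nothing is read from that share. In replicate 1 the 4 peaks stood in the top 0.672% (mdl-1), 1.16% (hif-1), 1.68% (hlh-29) and 1.80% (hlh-11) of the list. In replicate 2 they stood in the top 0.340% (hlh-11), 0.657% (hlh-29), 0.810% (mdl-1) and 3.35% (hif-1). The order therefore differed between the replicates, with hlh-11 last in one and first in the other. By the significance score in place of signal, mdl-1 was no longer among the 246 strongest of both, and 2 peaks were.

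**Figure D2:**
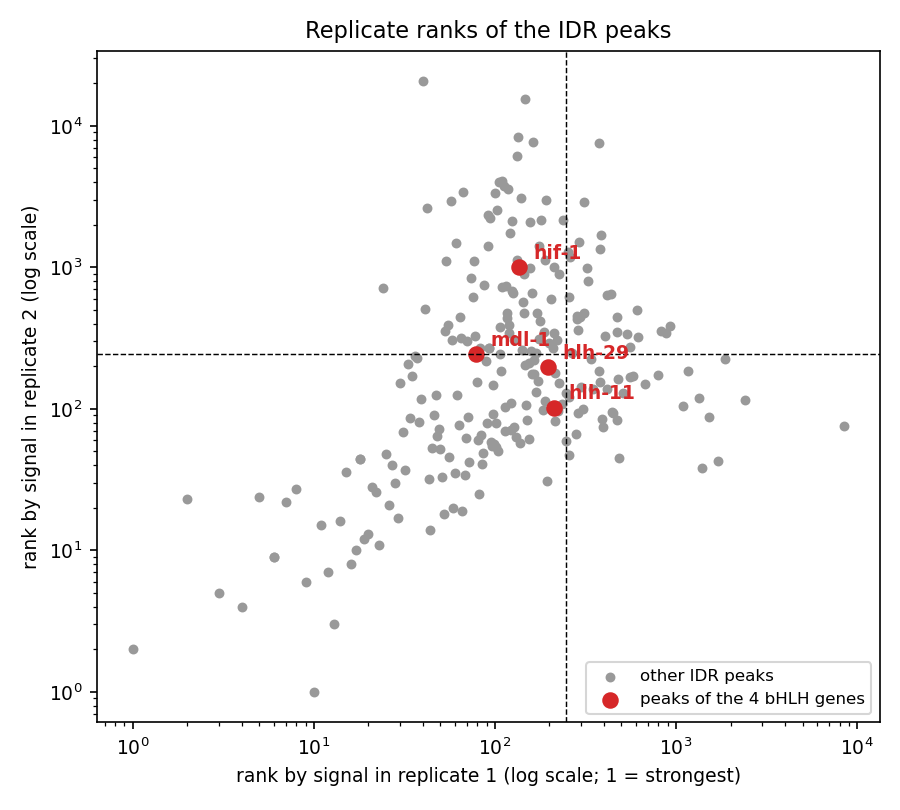
Rank by signal in replicate 1 (x axis) and replicate 2 (y axis), both on log scales, of the strongest region overlapping each IDR peak; dashed lines mark rank 246. Of the peaks of the 4 bHLH genes in red, those of mdl-1, hlh-11 and hlh-29 lie below both lines, with mdl-1 at rank 243 just inside, and that of hif-1 lies above the line of replicate 2 at rank 1006.

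Regions outside the 4 IDR peaks were compared between the replicates as well. Of 18 regions of replicate 1 in the windows of the 4 genes, 14 were overlapped by a region of replicate 2, against 34.4% of all 11750 regions of that list. Leaving out the regions that overlap an IDR peak, it was 7 of 11: 3 of 3 near mdl-1, 3 of 4 near hif-1, 1 of 3 near hlh-11 and 0 of 1 near hlh-29. Of 25 regions of replicate 2, 11 were overlapped by one of replicate 1, against 13.6% of all 30000, and 7 of 21 without the IDR peaks. The totals of 18 and 25 include regions at the IDR peaks by which the genes were chosen, so nothing is read from those shares. The shares of 34.4% and 13.6% are over whole lists, regions at IDR peaks included. All of these are counts over few neighbouring regions of the same libraries, and no test was made.

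**Figure D3:**
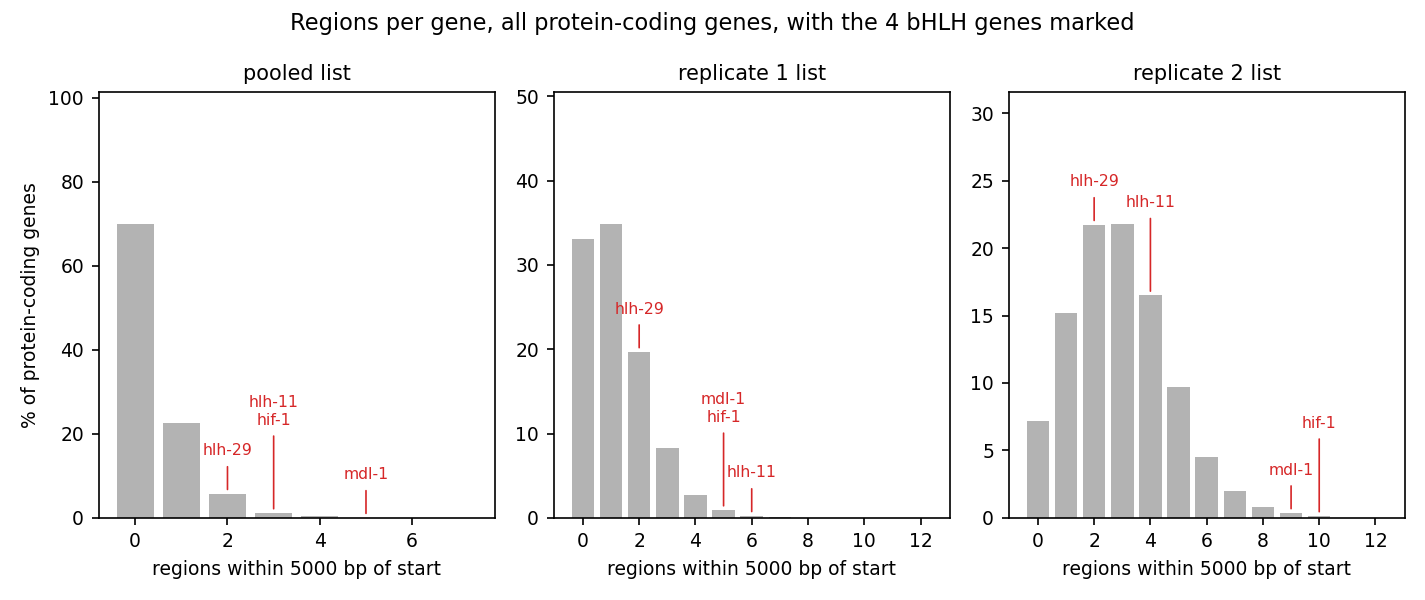
Share of protein-coding genes (y axis, %) by the number of regions within 5000 bp of the start (x axis) in the pooled, replicate 1 and replicate 2 lists, with the 4 bHLH genes marked in red. Their counts include the regions at the IDR peaks by which they were chosen. hif-1 with 10 and mdl-1 with 9 regions lie in the upper tail of replicate 2, while hlh-29 with 2 and hlh-11 with 4 lie in its body; in replicate 1 hlh-11 with 6 lies farthest out of the 4.

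The words under the summits differed from gene to gene, and 1 word was in all 4 windows of 201 bp. Words were searched on both strands, and overlapping matches each counted. GAGAGA occurred 5 times at hlh-11, 4 times at hif-1 and once each at mdl-1 and hlh-29. It was in 49.6% of all IDR windows and 18.5% of the 3764 other pooled windows. At hlh-11 it forms the GA-rich stretch around the summit, from 385 to 344 bp upstream of the start, and at hif-1 it is written TCTCTC on the gene's strand. CACACA was in the windows of mdl-1, hlh-11 and hlh-29, and in 34.1% of IDR and 13.3% of other windows. CGTCTC was in those of mdl-1 and hif-1, and in 42.3% of IDR and 10.3% of other windows. ACGCAG, in 33.7% of IDR and 8.95% of other windows, was in none of the 4, and nor was CTCGCG, in 11.4% and 2.98%. With 200 bp to each side, ACGCAG was at hlh-11 and hif-1 (43.5% of IDR windows) and CGTCTC also at hlh-11 (52.4%), while CTCGCG was still in none.

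Each E-box word searched was in 0 to 2 of the 4 windows. CAGGTG occurred once, in the hlh-29 window, 4071 to 4076 bp downstream of the start and written CACCTG on the gene's strand, and it was in 4.47% of IDR windows and 4.73% of other pooled windows. CAGGTA was in none of the 4, in 3.25% of IDR windows and in 4.22% of other windows. CACGTG, the E-box of Max-type bHLH dimers, occurred once, in the mdl-1 window 125 to 120 bp upstream of the start. It was in 5.69% of IDR and 3.77% of other windows. The general E-box CANNTG, which includes these words other than CAGGTA, was in the windows of mdl-1 and hlh-29 and in neither of hlh-11 and hif-1, against 62.6% of IDR and 54.6% of other windows. ACGTG, the core of hypoxia response elements and part of CACGTG, was at mdl-1 and hlh-29, and not at hif-1. It was in 22.4% of IDR and 17.3% of other windows. CATATG (4.47% of IDR and 3.13% of other windows) and CAGCTG (8.13% and 4.49%) were in none of the 4. With 200 bp to each side in place of 100, CACGTG was in the windows of mdl-1, hlh-11 and hif-1 (8.13% of IDR windows) CATATG was in that of hlh-29 (7.32%), and CANNTG and ACGTG were in all 4 (82.9% and 37.8%). With 50 bp to each side, CACGTG was in none of the 4 (3.25%). CANNTG was then in that of hlh-29 (42.7%), as was CACACA (19.1%), GAGAGA was in those of mdl-1, hlh-11 and hif-1 (32.5%), and CGTCTC was in that of mdl-1 (28.9%). A match is only a run of letters, and its absence from a window says nothing of the factor.

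Base composition also varied among the 4 windows of 201 bp. For mdl-1 the full window runs past the printed sequence into the annotated transcript. GC content was 61.2% at mdl-1, 50.2% at hif-1, 46.8% at hlh-11 and 40.3% at hlh-29. The median was 47.3% over the IDR windows and 36.8% over the other pooled windows. The mdl-1 window was in the upper tail, as 1.63% of IDR windows had a GC content as high, while 81.3% had one as high as hlh-29.

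Of the 41 listed bHLH genes, 6 (14.6%) had an IDR summit within 5000 bp of the start, against 2.71% of all protein-coding genes. The 6 include the 4 genes, which were chosen by such a summit, so nothing is read from that share. Besides the 4 genes, the 6 were hlh-27 and hlh-33, for each of which another gene start was nearer to the summit. hlh-27, another REF-1 family gene, had the strongest of these peaks, with signal 179 and rank 11, 3437 bp upstream of its start, and the insulin-like gene ins-13 was nearest to it. Its family neighbours hlh-25 and hlh-26 lay 8411 and 9908 bp from the same summit, outside the limit. hlh-33 had a summit of signal 49.9 and rank 190, 4370 bp downstream of its start, with ddp-1 nearest. Just inside the limit among the 4 genes was hlh-29 at 4036 bp, and the closest gene outside it was hlh-28, 6452 bp from the same summit.

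The longer lists were counted in the same way over the 41 listed bHLH genes. A pooled region lay within 5000 bp of 12 of the 41 genes (29.3%), against 30.1% of all protein-coding genes. In replicate 1 it was 27 genes (65.9%) against 66.9%, and in replicate 2 it was 39 (95.1%) against 92.8%. The 6 other bHLH genes with a pooled region had no IDR summit in their window. They were led by lin-32, the Atonal-like proneural gene, with rank 463 and signal 36.9. They went on with hlh-34 (rank 1387), hlh-6, an achaete-scute type gene of pharyngeal glands (1793), hlh-3 (3245) and hlh-14 (3658), both of achaete-scute type, and mxl-3, a Max-like gene (3496). The gap between hif-1 at rank 199 and lin-32 at rank 463 spans rank 246, the size of the IDR set. The IDR peaks of these genes keep their ranks in the pooled list. This gap follows largely from how the genes were grouped, so nothing is read from it.

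**Figure D4:**
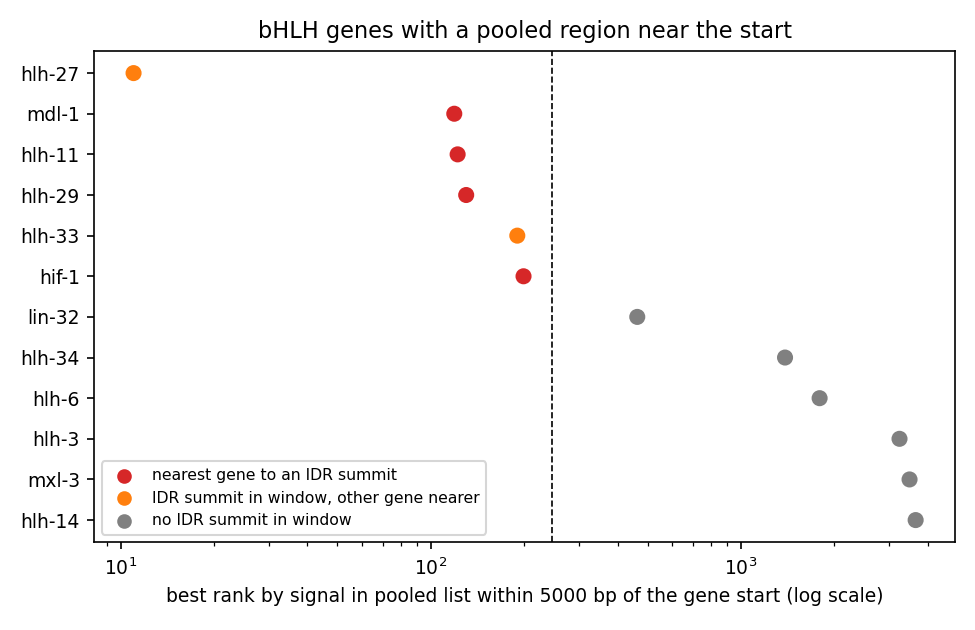
Best rank in the pooled list (x axis, log scale) of a region within 5000 bp of the start, for the 12 bHLH genes that have one; the dashed line is rank 246. Red points are the 4 genes nearest to an IDR summit (ranks 119 to 199), orange points are hlh-27 and hlh-33, where another gene is nearer, and grey points, from lin-32 at rank 463 on, have no IDR summit.

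Partners and pathway genes of the 4 factors were counted in the same windows, where 2.71% of all protein-coding genes had an IDR summit and 30.1% a pooled region. Each of the 3 lists with an IDR summit holds at least 1 of the 4 genes, which were chosen by such a summit, so nothing is read from those counts. In the Max and Mlx network, mdl-1 was the single gene of 5 with an IDR summit in its window, and mxl-3 was the other gene with a pooled region. The dimer partner mxl-1, and mml-1 with its partner mxl-2, had no pooled region. Of 13 hypoxia pathway genes, hif-1 had an IDR summit and 6 (46.2%) had a pooled region. The best of these besides hif-1 were at cysl-2, a HIF-1 target (rank 323, signal 41.7, 2642 bp upstream), elc-1, the elongin C gene (rank 488), and cysl-1, a regulator of EGL-9 (rank 941).

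Of 17 genes of the REF-1 family and the Notch pathway, hlh-27 and hlh-29 had an IDR summit and no other had a pooled region (11.8%), among them the Notch receptor genes lin-12 and glp-1 and the effector gene lag-1. Of 12 lipid mobilization genes 0 had an IDR summit and 7 (58.3%) had a pooled region. They were led by atgl-1, the lipase gene that HLH-11 represses (rank 917, signal 30.7, 1722 bp upstream), and by nhr-49 (1706), plin-1 (2057) and lipl-5 (2364). The last list held 10 genes, grouped here as proneural and related bHLH genes with the partner gene hlh-2. Of these, 0 had an IDR summit and 4 had a pooled region, all named above. The share of all protein-coding genes with a pooled region, 30.1%, is the background for these counts, and with lists this short none of them was tested.

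The peaks with the most similar ranks over the IDR, replicate 1 and replicate 2 lists were found among 225 IDR peaks with a gene start within 5000 bp. Likeness was the distance in log10 rank over these 3 lists. For mdl-1 they were the peaks near C28G1.2 (distance 0.0495) and the tyrosine hydroxylase gene cat-2 (0.128). For hlh-11 they were those near C06A6.2 (0.0462) and the G protein gene egl-30 (0.0967). For hlh-29 they were those near znf-782 (0.114) and the Mediator gene mdt-26 (0.129). For hif-1 they were those near Y22D7AL.10 (0.0178) and W06H8.6 (0.0515), with ranks 135 and 133 in replicate 1 and 1027 and 1127 in replicate 2, a list with more regions. None of the 4 genes was among the closest of another.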

How the data were processed

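ZAG-1 ChIP-seq peak lists of 2 biological replicates were analysed. Per the labels, the fragment size range was 150 to 350 bp. Per the deposited text listings, replicate lists derive from the alignments of the replicate plus another file, the pooled list from the alignments of both, also with another file, and the IDR list from these lists. No source used here gives the aligner, the peak caller or the IDR threshold. The authors deposited a signal value per region, used to rank within a list, and a significance value as −log10 q, used as an alternative.

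Summits (region start plus offset, 1-based) were placed on WBcel235, which is ce11, with Ensembl 115 annotation. Each was assigned to the nearest protein-coding start within 5000 bp. Replicate regions were matched to IDR peaks by 1 bp of overlap, taking the strongest. Window copies were searched with BLAST+ 2.17.0 at an E-value of 1e-05. The ce10 lists and any control library were not analysed here. The steps were checked with 200 planted summits and 200 planted words, of which 200 and 200 were recovered. The genes, lists and words were chosen with earlier results of these data known. The genes named were the 4, bHLH genes with an IDR summit, the 6 next by pooled rank, the 4 best of each other list, neighbours of the summits and the 2 closest rank profiles. Some partner and receptor genes without a pooled region were named for their role. Alternatives were other distances, starts, windows, overlaps, rankings and peak sets. Computation used Python 3.11.15, numpy 2.4.6, pandas 2.3.3 and matplotlib 3.10.9.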

Additional observations from a re-analysis of the deposited data

How the results depend on the processing

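No paired analysis was possible because the study has a single group. The number of listed bHLH genes nearest to an IDR summit, 4, was 2 within 1000 bp and 2 with the stronger 50% of the IDR peaks, mdl-1 and hlh-11 in each, and 3 within 2000 bp, where hlh-29 was lost. With the 246 strongest regions of 1 replicate in place of the IDR set it was 3 to 4, and hif-1 was lost without replicate 1. Transcript starts, genes of every biotype and 10000 bp each gave the same 4 genes. Regions near the 4 genes numbered 13 in the pooled list, 18 in replicate 1 and 25 in replicate 2, and within 2000 bp they numbered 8, 10 and 9, as a narrower window must hold fewer. Within 10000 bp replicate 2 had 42. The number of peaks among the strongest of both replicates was 3 with each other overlap and with the 500 or 1000 strongest, and 2 by significance score. Of these counts, 15 alternative values were within 1.5 times the main one and 6 were not. Of the values of single genes and words, 41 stayed within their limit and 31 moved, and the causes were not tested. Unknown read depth and 2 replicates limit the precision of every rank.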
